A study of Mus musculus with 6 samples.

Results

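The miRNAs described here are 8 mature miRNAs that are typical of organs far from the head: mmu-miR-122-5p of the liver, mmu-miR-192-5p, mmu-miR-194-5p and mmu-miR-215-5p of gut and kidney, and mmu-miR-216a-5p, mmu-miR-216b-5p, mmu-miR-217-5p and mmu-miR-375-3p of the pancreas. They were chosen by name, as a reading of how much signal from tissue outside the brain the libraries hold, and all 8 are among the 1915 mature miRNAs that each library lists. The samples were 6 small RNA libraries of whole brain from wild-type C57BL/6 embryos at E15.5, of which 3 were of females and 3 of males, with sex read from the presence of testicular cords. Each library pooled the RNA of 2 to 3 embryos, so a library is a pool and not an embryo. Depth ranged from 14802675 reads on miRNAs in female library 1 to 59362011 in female library 2, and levels are given as raw reads and as CPM, reads scaled to a common library total. Female library 2 stood apart, with 660 miRNAs detected against 790 to 915 in the other 5 libraries, so results that rest on it are also given without it.

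A miRNA is cut from a hairpin precursor into a 5p and a 3p arm, of which 1 usually accumulates, and it recognizes target mRNAs mainly through its seed, bases 2 to 8 from its 5′ end. miR-122 is the most abundant miRNA of hepatocytes. miR-192, miR-194 and miR-215 are made from a pair of clustered loci that are active in the epithelium of intestine and kidney. miR-216a, miR-216b and miR-217 lie in 1 cluster and mark pancreatic acinar tissue. miR-375 is the miRNA of pancreatic islets and of other endocrine cells, the pituitary included, where miR-7 is also abundant.

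The sequences below show which members can be told apart by a read. They are from RefSeq (GRCm38.p6), which held 6 of the 8 members. The seed is in capitals.
mmu-miR-192-5p: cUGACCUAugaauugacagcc
mmu-miR-215-5p: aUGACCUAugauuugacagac
mmu-miR-194-5p: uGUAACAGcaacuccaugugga
mmu-miR-216a-5p: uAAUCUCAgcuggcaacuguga
mmu-miR-216b-5p: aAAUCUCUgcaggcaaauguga
mmu-miR-217-5p: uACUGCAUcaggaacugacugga

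miR-192-5p and miR-215-5p shared their seed and 18 of 21 bases, and no other listed miRNA with a RefSeq sequence had this seed. miR-216a-5p and miR-216b-5p were identical at 18 of 22 bases when aligned from the 5′ end without gaps, and 1 of the 4 differences lay in the seed. miR-194-5p is made from 2 precursors with the same mature sequence, so its reads do not tell the loci apart. The 3p arms of these precursors do differ, at 4 of 22 bases, and are shown because they name the locus.
mmu-miR-194-1-3p: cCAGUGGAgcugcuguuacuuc
mmu-miR-194-2-3p: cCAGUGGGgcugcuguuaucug

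In mm9, the build the reads were mapped to, Mir194-2 lies on chromosome 19 from 6264643 to 6264728 and Mir192 from 6264844 to 6264932, both on the forward strand, 115 bp apart and outside other annotated genes. Mir194-1 lies on chromosome 1 from 187137198 to 187137264 and Mir215 from 187137460 to 187137571, both on the forward strand and within an intron of Iars2, which is on the reverse strand. Mir216b (28646191 to 28646276), Mir216a (28657012 to 28657083) and Mir217 (28663728 to 28663835) lie in this order on the forward strand of chromosome 11, over 17645 bp. Mir216a and Mir217 are within an intron of the transcript Gm12082, and Mir216b overlaps no gene in the mm9 annotation used here (GENCODE vM1). Mir375 lies on the reverse strand of chromosome 1 from 74947226 to 74947300, outside annotated genes, with Ccdc108 as the nearest coding gene.

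Of the 8 miRNAs, 7 had reads in every library, up to 20937 of them, and miR-215-5p had reads in 2 of 6. The highest mean level over the 6 libraries was that of miR-194-5p, at 316 ± 135 CPM (SD, n = 6), followed by miR-375-3p at 227 ± 39.8, miR-216b-5p at 196 ± 37.4 and miR-217-5p at 175 ± 55.7 CPM (SD, n = 6 each). miR-192-5p had 67.9 ± 19.4, miR-216a-5p 18.8 ± 6.84 and miR-122-5p 9.05 ± 4.30 CPM (SD, n = 6 each). The 4 highest members overlapped in range, and each of them lay above its lower neighbour among the 4 in 4 of the 6 libraries, so their order is not beyond the spread between libraries. miR-217-5p lay above miR-192-5p, and miR-192-5p above miR-216a-5p, in all 6 libraries with no overlap. miR-216a-5p lay above miR-122-5p in 5 of 6 libraries. In these whole-brain samples, fewer cells that make a miRNA and less of it per cell cannot be told apart.

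**Figure D1:**
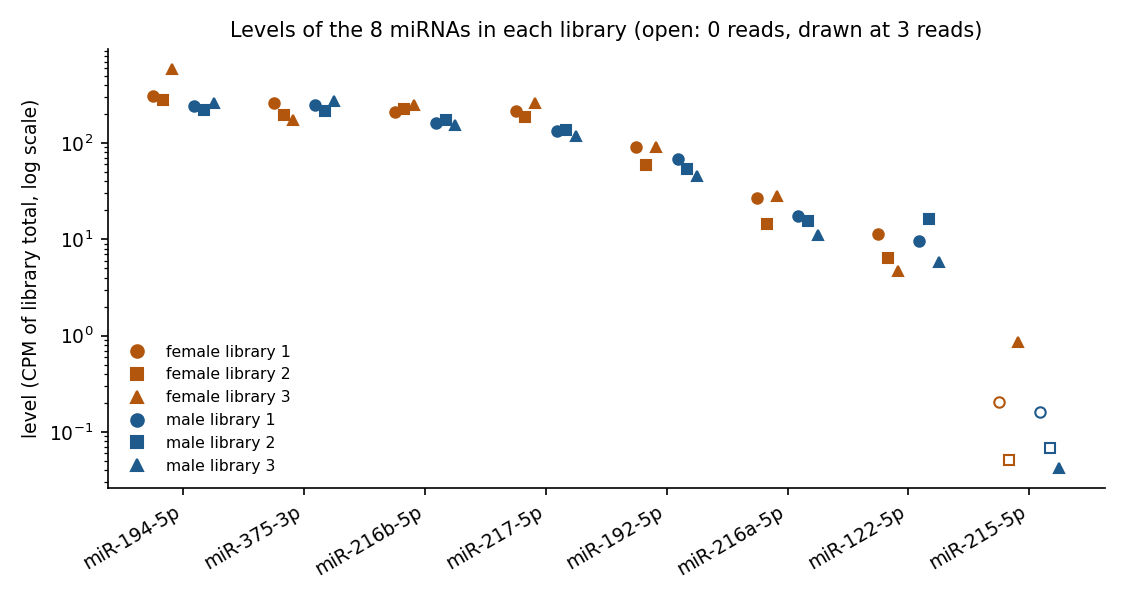
Level of each of the 8 miRNAs in each library, in CPM of the library total on a log axis, with female libraries in orange and male libraries in blue. Open symbols stand for 0 reads and are drawn at the level of 3 reads. The first 4 miRNAs lie between 118 and 585 CPM, and miR-215-5p is below 1 CPM in every library.

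Among the miRNAs detected in a library, miR-194-5p ranked between place 118 and place 186. miR-375-3p ranked between 169 and 202, miR-216b-5p between 172 and 218, and miR-217-5p between 174 and 234. These 4 lay above 70.9% to 86.7% of the miRNAs detected in the same library. miR-122-5p ranked between 400 and 512. Of the miRNAs detected, 29.7% lay below it in female library 2, which had the fewest detected, and 42.4% to 56.3% in the other libraries. The counting error of a CPM value (exact Clopper-Pearson 95% interval) had a width to either side of at most 17.1% of the value for the 7 miRNAs found in every library. It covers counting only, since the reads carry no molecular identifiers and can include copies of 1 molecule.

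The summed level of a list of brain miRNAs was far higher, though not the level of each of them. A list of 8 brain miRNAs (miR-9-5p, miR-9-3p, miR-124-3p, miR-128-3p, miR-125b-5p, miR-181a-5p, miR-137-3p and miR-138-5p) took 32.8% to 37.1% of the reads of each library, and its least abundant member had at least 670 reads in each. The mean of miR-9-5p alone was 173324 CPM, beside a mean sum of 348322 CPM. miR-137-3p and miR-138-5p had means of 88.3 and 48.3 CPM. Those 2 means lay below the means of miR-194-5p (316), miR-375-3p (227), miR-216b-5p (196) and miR-217-5p (175 CPM). The summed level of the 8 liver, gut and pancreas miRNAs was 1122, 971 and 1390.5 CPM in female libraries 1, 2 and 3 and 882, 832 and 868 CPM in male libraries 1, 2 and 3. That is 0.0832% to 0.139% of all reads, with the brain list 250.4 to 401 times higher. miR-194-5p made up 26.4% to 42.1% of the sum, and miR-122-5p 0.339% to 1.94%.

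The sum was higher in each female library than in each male library, with a female mean of 1161 ± 212 CPM (SD, n = 3). The male mean was 861 ± 25.8 CPM (SD, n = 3). The order of the sexes stayed when the sum was scaled by TMM, a normalization that scales libraries to each other after trimming the most divergent miRNAs, with 1099 to 1417 CPM in females and 771 to 863 in males. Female library 3 was the highest in both scalings. Other lists of miRNAs also differed between the sexes in their sums. A list of 7 epithelial miRNAs (the miR-200 family, miR-205-5p and miR-203-3p) had 730.0 to 1545 CPM in females and 9181 to 9499 CPM in males. A list of 4 skeletal muscle miRNAs had 388 to 1180.1 CPM in females and 5497 to 6139 CPM in males. In edgeR, 6 of the 7 epithelial and 4 of the 4 muscle miRNAs were called as higher in males, with median log2 fold changes of 2.35 and 2.91, where 3.21% of all miRNAs tested were called in this direction. The lists, here and below, were chosen with earlier results of these data known, so these counts are descriptions and not tests of enrichment. Of the muscle miRNAs, miR-1a-3p and miR-133b-3p were not called without female library 3 (edgeR adjusted p = 0.0579 and 0.204) or without male library 1 (edgeR adjusted p = 0.193 and 0.316).

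A list of 5 red blood cell miRNAs had 1284 to 2705 CPM in females and 3172 to 3927 CPM in males. Most of this sum was miR-486a-5p and miR-486b-5p, with means of 1318 CPM each over the 6 libraries. Their values were nearly equal, with lowest counts of 10757 and 10716 reads and log2 fold changes of 0.805 and 0.809. They are therefore not taken as 2 separate readings, and the sum can count the same reads under both names. Only these 2 were called in edgeR, both as higher in males, where 3.21% of all miRNAs tested were. Each was called in 3 of 6 fits with 1 library left out. miR-451a overlapped between the sexes (log2 fold change 0.18). miR-144-3p and miR-144-5p had log2 fold changes of -0.97 and -0.74 and, like miR-451a, were not called. The 2 guide strands of miR-7, known beside miR-375 in endocrine cells, had 13245 to 24777 CPM in females and 8109 to 8215 CPM in males, with female library 3 the highest. No member of these lists was at 0 in a library apart from miR-141-3p of the epithelial list. The sum of the liver, gut and pancreas miRNAs was 1.35 times higher in females than in males on average, whereas the epithelial and muscle sums were 8.71 and 8.34 times higher in males. The brain list was 1.09 times higher in females. In edgeR, 3 of its 8 miRNAs were called as lower in males (miR-9-3p, miR-137-3p and miR-138-5p), where 5.27% of all miRNAs tested were. The median log2 fold change of the brain list was -0.46, and 6 of the 8 values were negative. miR-138-5p was called in only 1 of 6 fits with 1 library left out. The part of any of these lists in the levels of the 8 miRNAs was not tested.

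**Figure D2:**
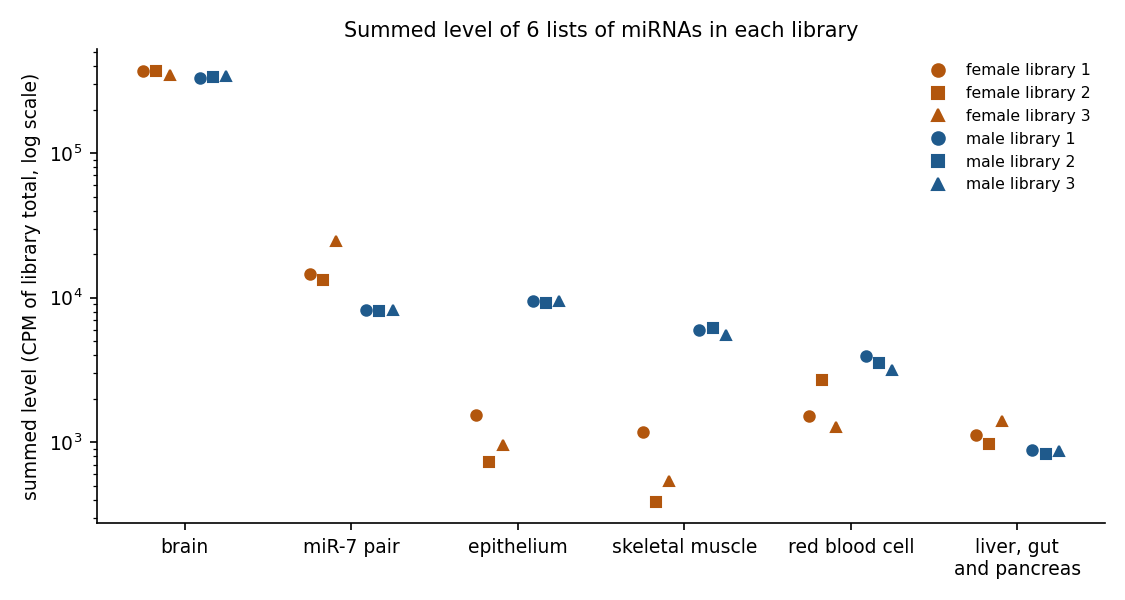
Summed CPM of 6 lists of miRNAs in each library, on a log axis, with female libraries in orange and male libraries in blue. The liver, gut and pancreas sum is 832 to 1390.5 CPM in all 6 libraries, while the epithelial and muscle sums lie above it in each male library.

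Differences between the sexes came from the quasi-likelihood test of edgeR over the 1120 miRNAs that had at least 10 reads in the sum of the 6 libraries, with log2 fold changes as male over female. All 8 members passed this filter. Of them, 2 passed an adjusted p of 0.05, miR-217-5p and miR-194-5p, both lower in males. Over all miRNAs tested, 8.48% were called, and 5.27% were called as lower in males. The median log2 fold change of the 8 members was -0.71 (-0.66 without miR-215-5p), beside -0.02 over all miRNAs tested, and 6 of the 8 values were negative. The count of 2 depended on single libraries: it was 5 without female library 2, 1 without female library 3, 1 without male library 3 and 0 without male library 1.

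In CPM of the library total, each female library lay above each male library for miR-194-5p, miR-216b-5p and miR-217-5p, which is 3 of 8 members. Of all miRNAs tested, 8.57% had this order and 23.9% did not overlap in either direction. With TMM scaling, miR-192-5p and miR-216a-5p also lay higher in each female library, which made 5 of 8 against 11.9% of all miRNAs tested. An exact permutation test on 1 miRNA in 3 libraries against 3 cannot give a p below 0.1.

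Within the pancreatic cluster, miR-217-5p, which lies at its 3′ end, was lower in males. It had 3190, 11183 and 9315 reads in female libraries 1, 2 and 3, or 215.5, 188 and 260.2 CPM, and 2501, 5965 and 2795 reads in male libraries 1, 2 and 3, or 134, 136 and 118 CPM. The male libraries lay close together and all below the lowest female library. Its log2 fold change was -0.90 with a standard error of 0.21 (edgeR, Benjamini-Hochberg adjusted p = 0.00631). Without male library 1 the edgeR adjusted p was 0.109, and without male library 3 it was 0.0563, with log2 fold changes of -0.85 and -0.84.

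miR-216b-5p, from the 5′ end of the cluster, had 3103, 13430 and 8903 reads in the female libraries, or 209.6, 226 and 249 CPM, and 3052, 7705 and 3672 reads in the male libraries, or 163, 175 and 155 CPM. All female libraries lay above all male libraries. The log2 fold change was -0.60 with a standard error of 0.21 (edgeR, Benjamini-Hochberg adjusted p = 0.0924), so it did not pass the threshold. It did pass without female library 2 (edgeR adjusted p = 0.0415), with a minimum of 10 reads in each library (0.0451) and with 1 RUVr factor, a term for unwanted variation (0.0497 in edgeR and 0.025 in DESeq2). An offset for GC content moved its log2 fold change to -0.29 (edgeR adjusted p = 0.537). miR-216a-5p, from the precursor between them, had 393, 855 and 1002 reads in the female libraries, or 26.5, 14.4 and 28.0 CPM. In the male libraries it had 323, 685 and 265 reads, or 17.3, 15.6 and 11.2 CPM. Female library 2 lay among the male libraries. Its log2 fold change was -0.76 with a standard error of 0.44 (edgeR, Benjamini-Hochberg adjusted p = 0.394), and without female library 2 it was -0.97 with an adjusted p of 0.0307 in the same test.

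miR-194-5p, of gut and kidney epithelium, had 4558, 16675 and 20937 reads in the female libraries, or 308, 281 and 585 CPM, and 4529, 9663 and 6118 reads in the male libraries, or 242, 220.0 and 259 CPM. Female library 3 was far above the other 5 libraries, and the lowest female library was close to the highest male library. The log2 fold change was -0.82 with a standard error of 0.24 (edgeR, Benjamini-Hochberg adjusted p = 0.0272). Without female library 3 the change was -0.44 (edgeR adjusted p = 0.234), and without male library 1 the edgeR adjusted p was 0.322. With library size in place of TMM the edgeR adjusted p was 0.117, and DESeq2 gave 0.0617, both above the threshold.

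miR-192-5p, from the chromosome 19 locus that also holds Mir194-2, had 1339, 3512 and 3284 reads in the female libraries, or 90.5, 59.2 and 91.7 CPM. In the male libraries it had 1261, 2356 and 1067 reads, or 67.5, 53.6 and 45.2 CPM. The sexes overlapped through female library 2, which lay below male library 1. Its log2 fold change was -0.66 with a standard error of 0.28 (edgeR, Benjamini-Hochberg adjusted p = 0.185). Without female library 2 the adjusted p was 0.0109 in edgeR, at a log2 fold change of -0.80. With all libraries and 1 RUVr factor it was 0.0487 in edgeR and 0.0413 in DESeq2.

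The islet miRNA miR-375-3p had 3854, 11608 and 6142 reads in the female libraries, or 260.4, 196 and 172 CPM, and 4636, 9471 and 6463 reads in the male libraries, or 248, 215.6 and 273.5 CPM. The sexes overlapped, with female library 1 between male libraries 1 and 3. The log2 fold change was 0.11 with a standard error of 0.21 (edgeR, Benjamini-Hochberg adjusted p = 0.85). Female library 3, the highest library for miR-194-5p, miR-217-5p and the miR-7 pair, was the lowest for miR-375-3p. The miR-7 guide strands were both lower in males, with log2 fold changes of -1.24 for miR-7a-5p and -1.03 for miR-7b-5p (edgeR, Benjamini-Hochberg adjusted p = 0.00187 and 0.00079). Without male library 1 the edgeR adjusted p was 0.0907 and 0.0517, and with the GC offset the log2 fold changes were -0.67 and -0.48 (edgeR adjusted p = 0.155 and 0.271).

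The hepatocyte miRNA miR-122-5p had 1750 reads in all, with 11.5, 6.47 and 4.72 CPM in female libraries 1, 2 and 3 and 9.63, 16.1 and 5.84 CPM in male libraries 1, 2 and 3. The levels spread widely within both sexes, which overlapped. In male library 2 the 95% counting interval was 15.0 to 17.4 CPM and in male library 3 it was 4.91 to 6.90 CPM. The log2 fold change was 0.39 with a standard error of 0.67 (edgeR, Benjamini-Hochberg adjusted p = 0.823), and it turned to -0.16 without male library 2.

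**Figure D3:**
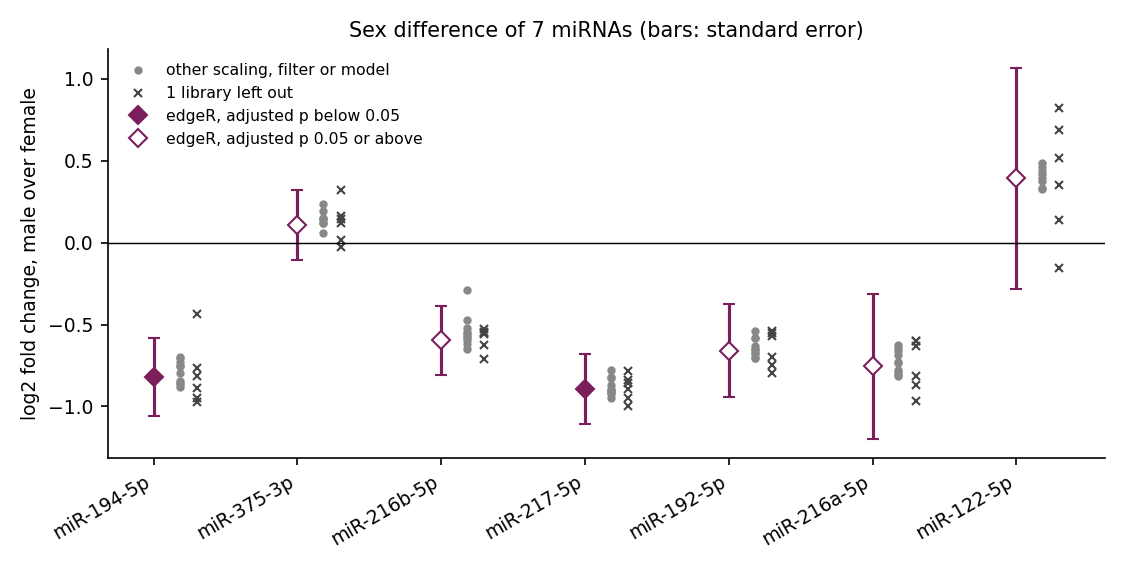
Log2 fold change, male over female, of the 7 miRNAs with reads in every library, with the standard error from edgeR as bars, and beside it the values under other settings (grey points) and with 1 library left out (crosses). The filled symbols, miR-194-5p at -0.82 and miR-217-5p at -0.90, are those with an adjusted p below 0.05, and crosses on both sides of 0 appear for miR-375-3p and miR-122-5p.

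miR-215-5p, which shares its seed with miR-192-5p, had 31 reads in female library 3 and 1 read in male library 3, and 0 reads in the other 4 libraries. In female library 3 that is 0.866 CPM, with a 95% counting interval of 0.588 to 1.23 CPM. By counting error alone, a count of 0 allows a level of up to 0.203 CPM in female library 1, 0.161 in male library 1 and 0.0683 in male library 2. The same limit would be 0.0505 CPM in female library 2, but low counts were scarce in that library, though not absent. The 10th percentile of its detected counts was 137.7 reads, against 11 to 21 in the others. Its 0 therefore may not bound the level in this way. miR-215-5p made up 0.935% of the reads of the miR-192 and miR-215 seed pair in female library 3 and 0.0936% in male library 3. Depth did not order these libraries, since female library 2 and male library 2 were both deeper than female library 3. The fitted log2 fold change (-4.11, standard error 4.46; edgeR, Benjamini-Hochberg adjusted p = 0.665) depends on how a count of 0 is treated.

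The 3p arms of miR-194 gave reads from 1 of its 2 loci. miR-194-2-3p, from the chromosome 19 locus that also holds Mir192, had 160 reads in female library 3 and 99, 270 and 168 reads in male libraries 1, 2 and 3. miR-194-1-3p, from the chromosome 1 locus that holds Mir215, had 0 reads in all 6 libraries. The 4 libraries with reads of miR-194-2-3p had it at 0.764% of miR-194-5p in female library 3 and at 2.19% to 2.79% in the male libraries.

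Female libraries 1 and 2 had 0 reads of miR-194-2-3p beside 4558 and 16675 reads of miR-194-5p. At the lowest share found elsewhere, 0.764%, these libraries would have had 34.8 and 127 reads. In female library 2, where low counts were scarce, 127 reads is below the 10th percentile of detected counts (137.7). Its 0 therefore does not show a share below that lowest one. At the median share of the libraries with reads, female libraries 1 and 2 would have had 112 and 411 reads. Both lie above the 10th percentile of detected counts in the same library (11 and 137.7), as do the 34.8 reads in female library 1. Whether the share was lower in these libraries was not tested. The log2 fold change of miR-194-2-3p was 1.96 with a standard error of 1.53 (edgeR, Benjamini-Hochberg adjusted p = 0.481), so it did not pass the threshold. The call turned on female library 3, the only female library with reads, without which the edgeR adjusted p was 0.01 with every remaining female library at 0. DESeq2 with 1 RUVr factor gave an adjusted p of 0.0246.

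The other arms of the remaining precursors were rare or at 0. miR-216a-3p was the exception, with 140, 568 and 282 reads in the female libraries and 185, 244 and 180 reads in the male libraries, so that miR-216a-5p was 1.47 to 3.55 times as abundant as its partner. miR-192-3p had 12 and 8 reads in male libraries 2 and 3 and 0 elsewhere. miR-216b-3p was at 0 in female library 2 and male library 1. miR-217-3p had at most 114 reads and was at 0 in 3 libraries. miR-122-3p, miR-215-3p and miR-375-5p had 0 reads in every library, as did both arms of miR-216c, whose precursor RefSeq places antisense to Mir216b.

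Of the 11 other arms and antisense forms, 5 passed the filter and none of them was called between the sexes in edgeR, nor did any have an unadjusted p below 0.05. Female library 2 had 0 reads for 3 of the 4 arms that were found in at least 3 of the other libraries. Over all miRNAs found in at least 3 other libraries, 23.8% were at 0 in female library 2, against 5.57% to 11.8% in each of the other libraries. The part of this in the arm counts was not tested.

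Ratios within a library do not depend on scaling, so they were taken for miRNAs of 1 locus, a choice made after the counts were seen. miR-194-5p was 3.40, 4.75 and 6.38 times as abundant as miR-192-5p in female libraries 1, 2 and 3, and 3.59, 4.10 and 5.73 times in male libraries 1, 2 and 3. This ratio overlapped between the sexes, and it varied by 0.36 (SD on the log2 scale, n = 6). Of the 549 other miRNAs that reached 10 reads in each library, 73 had a steadier ratio to miR-194-5p.

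miR-216b-5p and miR-217-5p were close in level, with ratios of 0.973, 1.2 and 0.956 in the female libraries and 1.22, 1.29 and 1.31 in the male libraries. The sexes did not overlap in this ratio, though the highest female value, 1.2, was close to the lowest male value, 1.22. The SD of this ratio was 0.20 on the log2 scale, and 24 of 549 miRNAs had a steadier ratio to miR-216b-5p. Both were 7.74 to 15.7 times as abundant as miR-216a-5p of the same cluster. Female library 2 had the highest ratios to miR-216a-5p, 15.7 for miR-216b-5p and 13.1 for miR-217-5p.

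**Figure D4:**
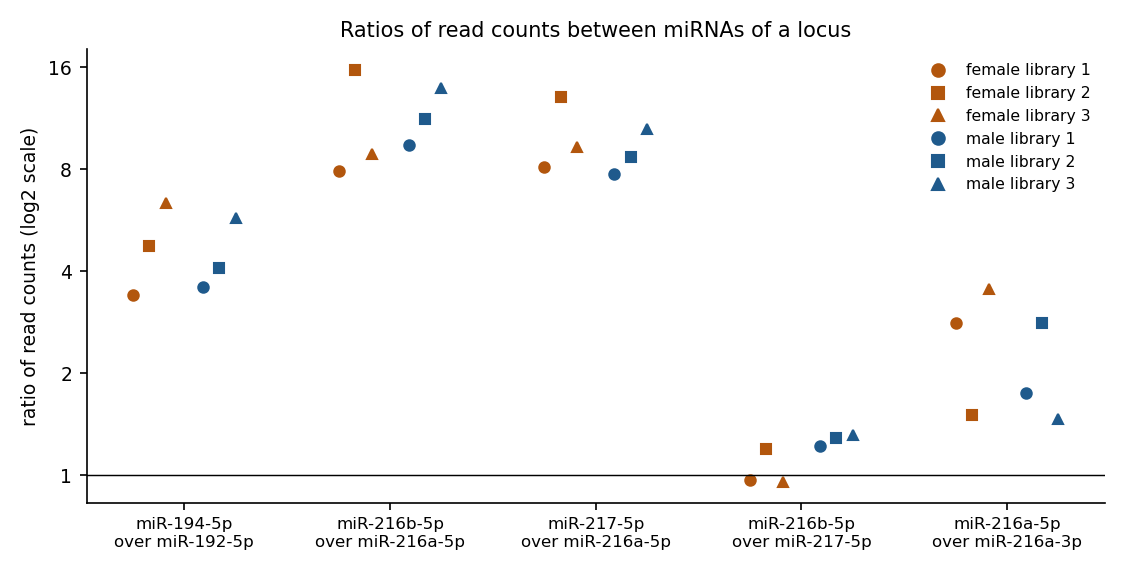
Ratio of read counts between miRNAs of 1 locus in each library, on a log2 axis, with female libraries in orange and male libraries in blue and a line at 1. miR-216b-5p over miR-217-5p stays between 0.956 and 1.31, whereas the ratios to miR-216a-5p range from 7.74 to 15.7.

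The miRNAs with the most similar pattern were found by the root mean square difference of log2 CPM, each centred on its mean over the 6 libraries, among the same 549 miRNAs. For miR-194-5p the nearest was miR-376a-5p at 0.045, for miR-217-5p miR-34c-5p at 0.097 and for miR-216b-5p miR-1839-5p at 0.086, on the log2 scale. For miR-375-3p the nearest was miR-466d-3p at 0.073, then miR-155-5p at 0.080. The nearest to miR-192-5p was miR-181c-5p at 0.11, and miR-216a-5p was the fourth nearest at 0.13. In turn miR-192-5p was the nearest of all to miR-216a-5p, although they lie on different chromosomes.

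miR-122-5p had no near neighbour, the closest being let-7b-3p at 0.36, where the median over all 549 was 0.75. The other gut and pancreas members were farther from miR-122-5p and miR-375-3p than from each other. The distances from miR-375-3p to miR-192-5p, miR-194-5p, miR-216a-5p, miR-216b-5p and miR-217-5p were 0.46 to 0.64, and those among these 5 miRNAs were 0.13 to 0.36. All of these values share the same 6 libraries and are descriptions.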

How the data were processed

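Small RNA libraries of whole brain from wild-type embryos at E15.5 were sequenced (3 per sex, each a pool). The authors trimmed adaptors with cutadapt (version 1.15), mapped reads with Bowtie (version 1.2.1) to miRBase v.21 and mm9, and quantified known miRNAs in the miRDeep2 workflow. They deposited raw counts of reads per mature miRNA, with no normalization. The authors' methods compare the sexes with DESeq2 and RUVr.

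Levels were computed as CPM of the library total. A summed count of 10 reads was the minimum for a miRNA to be tested. Counts were scaled by TMM and compared between the sexes with edgeR 4.0.16 (quasi-likelihood test, sex as the only term, R 4.3.3), with Benjamini-Hochberg adjustment over all 1120 miRNAs calling miRNAs below 0.05. The standard error was taken as the size of the log2 fold change over the square root of F. Intervals are 95% Clopper-Pearson, and a count of 0 was given a limit of 3 reads. With depths of 14802675 to 59362011 reads, 1 read is worth 0.0168 to 0.0676 CPM. No library repeats another: equal counts made up at most 0.210% of well-covered miRNAs (over 100 reads) in a pair.

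Named miRNAs were the 8 members, the other arms of their precursors, fixed lists for brain, skeletal muscle, epithelium, red blood cells and endocrine cells, and for each member the 3 miRNAs nearest in pattern, of which those nearest are printed. Members and lists were chosen with earlier results of these data known. Alternatives were library size and upper quartile scaling, DESeq2 1.42.0 without independent filtering, 1 RUVr factor, other filters, a replicate block, a GC offset, and leaving out each library. The tests were tried on 5 simulated data sets with known changes. edgeR recovered 21.5% of 2-fold and 39.2% of 4-fold changes, and 4.88% of its calls were false. The changed miRNAs were drawn at random from all those tested, rare ones included, so these shares do not give the recovery for the members. A miRNA that was not called can still differ between the sexes. False calls made up 12.2% with DESeq2 and 18.4% with DESeq2 and 1 RUVr factor, so calls by these may be less certain. With edgeR and 1 RUVr factor they made up 4.745%. The simulated counts used dispersions estimated by edgeR and held no unwanted variation. They therefore cannot show how a RUVr factor acts in the real libraries. Precursor positions are from GENCODE vM1 on NCBIM37 (mm9), and sequences from RefSeq.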

Additional observations from a re-analysis of the deposited data

How the results depend on the processing

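Direction and side of the threshold stayed the same in 106 of 122 values, each being the log2 fold change of 1 member in 1 alternative fit. Most of these values are of members that were not called. Of the 2 called members, miR-194-5p was called in 12 of its 16 alternative fits and miR-217-5p in 14 of 16. Both reversals were of values that did not pass the threshold: miR-122-5p at -0.16 without male library 2 (-0.16 to 0.82 with 1 library left out) and miR-375-3p at -0.029 without female library 3 (-0.029 to 0.32). From 2 of 8, the number of members called fell to 1 with library size scaling and 1 with DESeq2, and rose to 4 with 1 RUVr factor in edgeR and in DESeq2 and to 3 with at least 10 reads in every library. It ranged from 0 to 5 with 1 library left out, the lowest without male library 1 and the highest without female library 2. Over all miRNAs, the share called was 8.48% and became 18.1% with DESeq2 and 1 RUVr factor and 17.6% with at least 10 reads in every library. With 1 library left out, the lowest share was 2.73%, where male library 1 was dropped, and the highest 18.3%, where female library 2 was dropped. With library size in place of TMM, 50 of 89 calls were higher in males (56.2%) against 36 of 95 (37.9%), and the median log2 fold change of all miRNAs moved by 0.11. The GC offset, run on the 951 miRNAs with a sequence, called 66 against 82 without it (a comparison added after seeing the data), and moved miR-216b-5p from -0.62 to -0.29. The cause of these changes was not tested. The summed level kept its direction, with log2 ratios of males to females from -0.55 to -0.28 beside -0.43. Replicate numbers are shared by the sexes, but same-numbered libraries did not deviate together (correlations of -0.049, -0.011 and 0.046). A block for the replicate number gave 92 calls and the same number of members called, 2. Values of miR-215-5p and of arms at 0 in some libraries are the least certain, and total depth did not order the libraries by these zeros.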
